A study of Mus musculus with 42 samples.

Results

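The 9 genes described here act in the wasting and in the formation of skeletal muscle. They are Trim63, Fbxo32, Foxo1, Gadd45a, Bnip3, Mstn, Myod1, Myog and Myf6, and they were taken by the gene symbol that the array design gives to its probes, 9 of the 21186 genes with a symbol. The 9 genes carry 11 probes, 2 each for Fbxo32 and Foxo1 and 1 for each of the others. RNA of aorta and of skeletal muscle was read on 42 single-colour arrays, 3 for each of 7 groups in each tissue, and the muscle that was sampled is not named. All mice were male and entered the study at 18 to 20 weeks of age. Group G held healthy C57BL/6 mice. The other 6 groups held KK/Ay mice, an inbred strain with the yellow allele of the agouti gene that becomes obese and diabetic on its own. Group A received no further challenge and is called diabetic. Groups C, B, D, E and F were all made into a model of macroangiopathy by 8 weeks of L-NAME, which blocks nitric oxide synthase, on a high-fat diet. For the next 8 weeks group B was gavaged with SHENQI compound, D with its yangyinyiqi part, E with its huoxue part and F with rosiglitazone, an agonist of the nuclear receptor PPAR gamma, whereas G, A and C were gavaged with saline. Every comparison with group G therefore crosses mouse strain as well as disease. Tissue was taken from 3 mice of each group, and the labels do not say which mouse an array or a replicate number stands for.

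A muscle fibre loses mass when its proteins are broken down faster than they are made. In a wasting fibre the transcription factor FoxO1 moves into the nucleus and switches on Trim63 (MuRF1) and Fbxo32 (atrogin-1), the E3 ubiquitin ligases that mark muscle proteins for the proteasome, and insulin and IGF-1 hold FoxO1 back through the kinase Akt. Myostatin, the product of Mstn, is a secreted factor of the TGF beta family that limits muscle growth. MyoD1, myogenin and MRF4, the products of Myod1, Myog and Myf6, are basic helix-loop-helix factors that bind the E-box CANNTG and drive the muscle programme. Gadd45a is a stress-response gene that is induced in denervated and fasted muscle, and Bnip3 encodes a mitochondrial protein that takes part in autophagy of mitochondria.

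All 9 genes were measured in muscle. Each of them was well above background on all 21 muscle arrays, with the exception of Gadd45a, which reached it on 19. Healthy muscle array 3 stood apart from the other muscle arrays: it had the lowest mean level of 12 skeletal muscle fibre markers (15.82 on the log2 scale, against 16.17 to 16.64 on the other 20 arrays), the lowest level of 7 smooth muscle markers (9.14), of 5 fibroblast markers (9.56) and of 5 endothelial markers (8.26), and the highest level of 5 macrophage markers (8.79). In aorta, healthy array 1 had the lowest level of the smooth muscle markers (9.48) and correlated with another healthy aorta array at an r of only 0.878. The arrays were also hybridized on 11 slides of up to 4. In muscle, groups A and C shared no slide with group G or with each other, and groups E and F shared no slide with group C. Slide and group cannot be told apart in A vs G, C vs G, E vs C and F vs C. Groups A and C were linked only through group B. Its muscle array 1 shared slide 5 with group A, and its muscle arrays 2 and 3 shared slide 7 with group C. Healthy muscle arrays 1 and 2 shared slide 3 with rosiglitazone muscle arrays 2 and 3, so F vs G could also be read within a slide.

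The RefSeq promoter table used here (GRCm38.p6) has an entry for 6 of the 9 genes and none matched for Fbxo32, Myod1 and Myf6. The 250 bases before the start sites of Trim63, Foxo1 and Gadd45a are shown because these genes were lower together in the KK/Ay groups. Capitals mark the FoxO core TGTTTAC on either strand and the E-box CANNTG, which reads the same way on both strands. The promoters lie at chr4:134314870-134315119 on the plus strand for Trim63, chr3:52268087-52268336 on the plus strand for Foxo1 and chr6:67037408-67037657 on the minus strand for Gadd45a.
Trim63: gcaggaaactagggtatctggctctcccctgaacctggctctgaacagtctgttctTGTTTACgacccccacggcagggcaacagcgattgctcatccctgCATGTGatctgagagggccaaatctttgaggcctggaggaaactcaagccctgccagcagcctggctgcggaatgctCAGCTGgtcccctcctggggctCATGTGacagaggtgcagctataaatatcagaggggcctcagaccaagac
Foxo1: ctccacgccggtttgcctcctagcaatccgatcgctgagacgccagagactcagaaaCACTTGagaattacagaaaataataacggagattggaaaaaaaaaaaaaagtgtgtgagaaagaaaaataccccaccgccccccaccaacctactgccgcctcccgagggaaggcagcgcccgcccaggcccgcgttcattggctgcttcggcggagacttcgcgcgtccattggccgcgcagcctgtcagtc
Gadd45a: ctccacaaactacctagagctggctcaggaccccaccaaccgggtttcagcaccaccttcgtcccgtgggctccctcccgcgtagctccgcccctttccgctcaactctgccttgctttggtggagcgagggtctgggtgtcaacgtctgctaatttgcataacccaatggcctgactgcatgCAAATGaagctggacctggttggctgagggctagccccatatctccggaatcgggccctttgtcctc
The Trim63 promoter held TGTTTAC once, 194 bases before the start, a motif found in 3.17% of the 32851 promoters of the same length. It also held 3 E-boxes, at 149, 72 and 50 bases before the start. The Foxo1 and Gadd45a promoters held 1 E-box each and no TGTTTAC, and an E-box occurred in 66.2% of all promoters. These matches describe the letters only.

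The ubiquitin ligase genes Trim63 and Fbxo32 were much higher in healthy muscle than in muscle of any KK/Ay group. Trim63 read 15.20, 14.77 and 15.45 on the 3 healthy arrays (log2 intensity), 12.69, 12.56 and 12.21 on the diabetic arrays and 12.98, 13.21 and 13.04 on the macroangiopathy arrays. On the arrays of groups B, D, E and F it lay between 12.39 and 13.21. All 3 healthy arrays thus lay above the highest of the 18 KK/Ay arrays, and the groups did not overlap. Only 3.63% of the 14201 genes tested in muscle had their 3 healthy arrays above all 18 KK/Ay arrays. Trim63 fell 6.29-fold in A vs G (log2 fold change -2.65, SE 0.20, adjusted p = 3.2e-07 by limma), 4.18-fold in C vs G (-2.06, SE 0.20, adjusted p = 3.9e-06) and 4.38-fold in F vs G (-2.13, SE 0.20, adjusted p = 2.9e-06). In A vs G its decrease ranked 16th among all genes tested. These comparisons share the healthy arrays. In order of the group means, G (15.14 ± 0.34, SD, n = 3) was followed by C (13.08 ± 0.12), F (13.01 ± 0.09), E (12.93 ± 0.30), D (12.86 ± 0.06), B (12.76 ± 0.41) and A (12.49 ± 0.25). No neighbours in this order among the KK/Ay groups differed by more than the larger of their SDs.

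Fbxo32 showed the same split. The mean of its probes read 12.86, 12.78 and 13.00 on the healthy arrays, 11.21, 11.44 and 11.10 on the diabetic arrays and 11.81, 11.66 and 11.96 on the macroangiopathy arrays. All 18 KK/Ay arrays lay at or below 11.96 and so below every healthy array. Fbxo32 fell 3.09-fold in A vs G (-1.63, SE 0.15, adjusted p = 2.8e-06 by limma), 2.10-fold in C vs G (-1.07, SE 0.15, adjusted p = 0.00013) and 2.82-fold in F vs G (-1.49, SE 0.15, adjusted p = 8.1e-06). Its probes lie at chr15:58011752-58011811 and chr15:58009391-58009450 on the minus strand (mm9). They gave -1.88 and -1.37 in A vs G, -1.31 and -0.82 in C vs G, and -1.82 and -1.17 in F vs G, so the size differed between the probes and the direction did not. Over the 21 muscle arrays Trim63 and Fbxo32 correlated at r = 0.90, a value set largely by the gap between healthy and KK/Ay arrays, since after the group means were taken out r was 0.30.

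**Figure D1:**
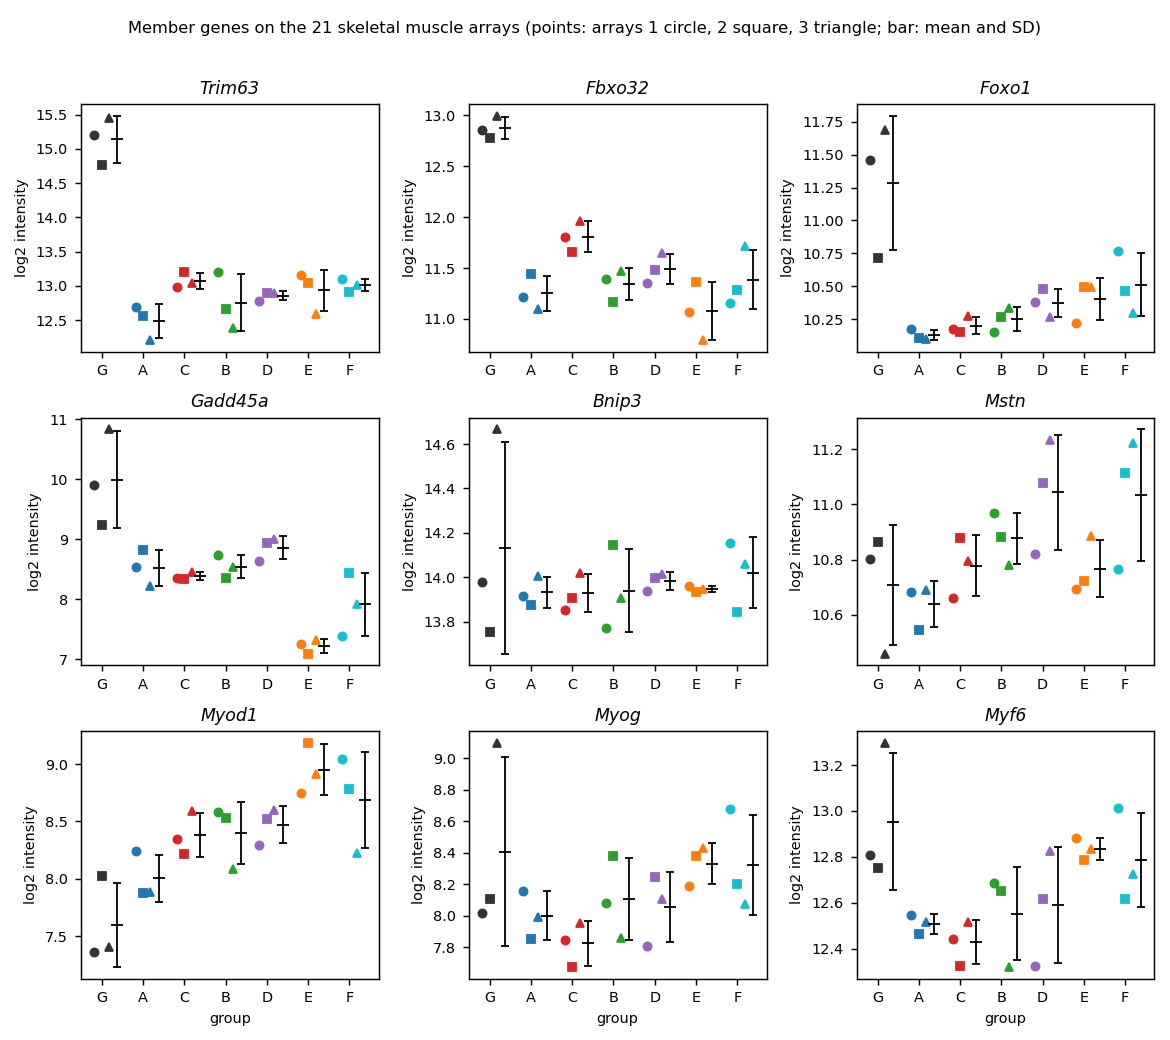
Log2 intensity of the 9 genes on each of the 21 skeletal muscle arrays, by group (G healthy, A diabetic, C macroangiopathy, B SHENQI, D yangyinyiqi, E huoxue, F rosiglitazone); points are arrays and the bar beside them gives the mean and SD of 3. The healthy arrays of Trim63, Fbxo32 and Gadd45a lie above all 18 KK/Ay arrays, and those of Bnip3, Mstn, Myod1, Myog, Myf6 and Foxo1 overlap them.

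Foxo1, the FoxO factor itself, was also lower in diabetic and model muscle. The healthy arrays read 11.46, 10.71 and 11.69, the diabetic arrays 10.17, 10.11 and 10.10, and the macroangiopathy arrays 10.18, 10.15 and 10.27. Healthy array 2 was the lowest of its group, and rosiglitazone array 1 (10.77) lay just above it. Foxo1 fell 2.23-fold in A vs G (-1.16, SE 0.18, adjusted p = 0.00019 by limma), 2.12-fold in C vs G (-1.08, SE 0.18, adjusted p = 0.00034) and 1.71-fold in F vs G (-0.77, SE 0.18, adjusted p = 0.0052). The probes, at chr3:52150183-52150242 and chr3:52153289-52153348 (mm9), gave -1.16 and -1.16 in A vs G and -1.02 and -1.15 in C vs G. The healthy mean was 11.29 ± 0.51 (SD, n = 3), and the KK/Ay means ran from 10.51 ± 0.24 in F down to 10.13 ± 0.04 in A.

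Gadd45a read 9.91, 9.24 and 10.83 in healthy muscle, 8.53, 8.82 and 8.22 in diabetic muscle and 8.36, 8.34 and 8.46 in macroangiopathy muscle. Every healthy array lay above all 18 KK/Ay arrays, the highest of which was in group D. Gadd45a fell 2.77-fold in A vs G (-1.47, SE 0.30, adjusted p = 0.0018 by limma), 3.05-fold in C vs G (-1.61, SE 0.30, adjusted p = 0.0010) and 4.23-fold in F vs G (-2.08, SE 0.30, adjusted p = 0.00018). The spread between the healthy arrays (SD 0.80) was the largest among the groups, with array 3 the highest. The means of the KK/Ay groups ran from 8.86 ± 0.19 in D to 7.22 ± 0.11 in E. Bnip3 was close to level over the groups, with means from 13.93 to 14.13. Its log2 fold change was -0.20 in A vs G (adjusted p = 0.38) and -0.20 in C vs G (adjusted p = 0.38), and healthy array 3 (14.67) was above the other 20 muscle arrays.

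Mstn did not pass the test in any comparison of groups in muscle. It read 10.80, 10.86 and 10.46 on the healthy arrays and between 10.54 and 11.23 on the KK/Ay arrays, so the groups overlapped. Its largest difference was in F vs G (0.33, SE 0.13, adjusted p = 0.073 by limma), and it passed there when healthy array 2 (0.40, adjusted p = 0.033) or rosiglitazone array 1 (0.46, adjusted p = 0.020) was left out, and with slide as a random block (0.33, adjusted p = 0.046).

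Among the myogenic factors Myod1 moved against the ligases between healthy and KK/Ay muscle. Over the 18 KK/Ay arrays alone Myod1 correlated with Trim63 at r = 0.54 and with Fbxo32 at r = -0.27. It read 7.36, 8.02 and 7.41 in healthy muscle, 8.24, 7.88 and 7.89 in diabetic muscle, 8.34, 8.22 and 8.59 in macroangiopathy muscle, and 9.05, 8.78 and 8.23 in rosiglitazone muscle. The groups overlapped in A vs G and did not in C vs G and F vs G. Myod1 rose 1.73-fold in C vs G (0.79, SE 0.21, adjusted p = 0.012 by limma) and 2.13-fold in F vs G (1.09, SE 0.21, adjusted p = 0.0019), whereas its value in A vs G was 0.41 (adjusted p = 0.17). The call in C vs G was lost without macroangiopathy array 3 (0.68, adjusted p = 0.055) and with slide as a random block (0.78, adjusted p = 0.051), and in A vs G a call was made without healthy array 2 (0.62, adjusted p = 0.033). The probes of Myod1 and Myog are spotted 10 times on each array, and the SD between these spots in muscle had a median of 0.14 for Myod1 and 0.12 for Myog.

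Myf6, the factor most abundant in adult fibres, read 12.81, 12.75 and 13.30 in healthy muscle, 12.55, 12.46 and 12.52 in diabetic muscle and 12.44, 12.33 and 12.52 in macroangiopathy muscle. It fell 1.36-fold in A vs G (-0.44, SE 0.15, adjusted p = 0.033 by limma) and 1.44-fold in C vs G (-0.53, SE 0.15, adjusted p = 0.014). Both calls were lost without healthy array 3, where the values were -0.27 (adjusted p = 0.14) and -0.35 (adjusted p = 0.058). The call in A vs G was also lost without any single diabetic array (adjusted p from 0.064 to 0.084), and that in C vs G without macroangiopathy array 2 (adjusted p = 0.053). Myog read 8.02, 8.10 and 9.10 in healthy muscle and 7.67 to 8.68 in the KK/Ay groups, and it passed the test in no comparison of groups in muscle. Its value in C vs G was -0.58 (adjusted p = 0.073), and it passed there without healthy array 1 (-0.78, adjusted p = 0.029) or healthy array 2 (-0.73, adjusted p = 0.034). The high value of Myog on healthy array 3 coincided with the highest values of Myf6 and Bnip3 on the same array, which had the marker levels given above, and the part of those levels in these values was not tested.

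In A vs G, 5 of the 9 genes passed the test and all 5 were lower, where 27.9% of all genes tested passed and 11.5% were lower. In C vs G, 6 of 9 passed, 5 lower and 1 higher (26.3% of all genes, 11.2% lower and 15.1% higher). In F vs G, 5 of 9 passed, 4 lower and 1 higher (23.6% of all genes, 8.53% lower and 15.1% higher). The arrays of the 2 groups did not overlap for 5 genes in A vs G (31.7% of all genes), 7 in C vs G (30.8%) and 4 in F vs G (27.7%). The median log2 fold change of all genes tested was 0.02 in both A vs G and C vs G, and 0.03 in F vs G. Without healthy array 3 the counts of members were 4, 5 and 5. In that setting 2054, 2042 and 1123 of all 14201 genes tested were lower and 2611, 2506 and 1672 higher. With only the 6 arrays compared in each fit they were 2, 2 and 2, Trim63 and Fbxo32 each time, and with the 12 arrays of both tissues and a tissue term, a fit with a single effect for both tissues, they were 0, 1 and 0. Within slide 3, where healthy arrays 1 and 2 and rosiglitazone arrays 2 and 3 were hybridized side by side, the difference F minus G was -2.02 for Trim63, -1.32 for Fbxo32, -0.70 for Foxo1, -1.40 for Gadd45a and 0.82 for Myod1. With slide as a fixed block in the limma fit all 5 passed, with adjusted p from 4.53e-05 for Trim63 to 0.039 for Myod1. For A vs G and C vs G no such value can be had.

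**Figure D2:**
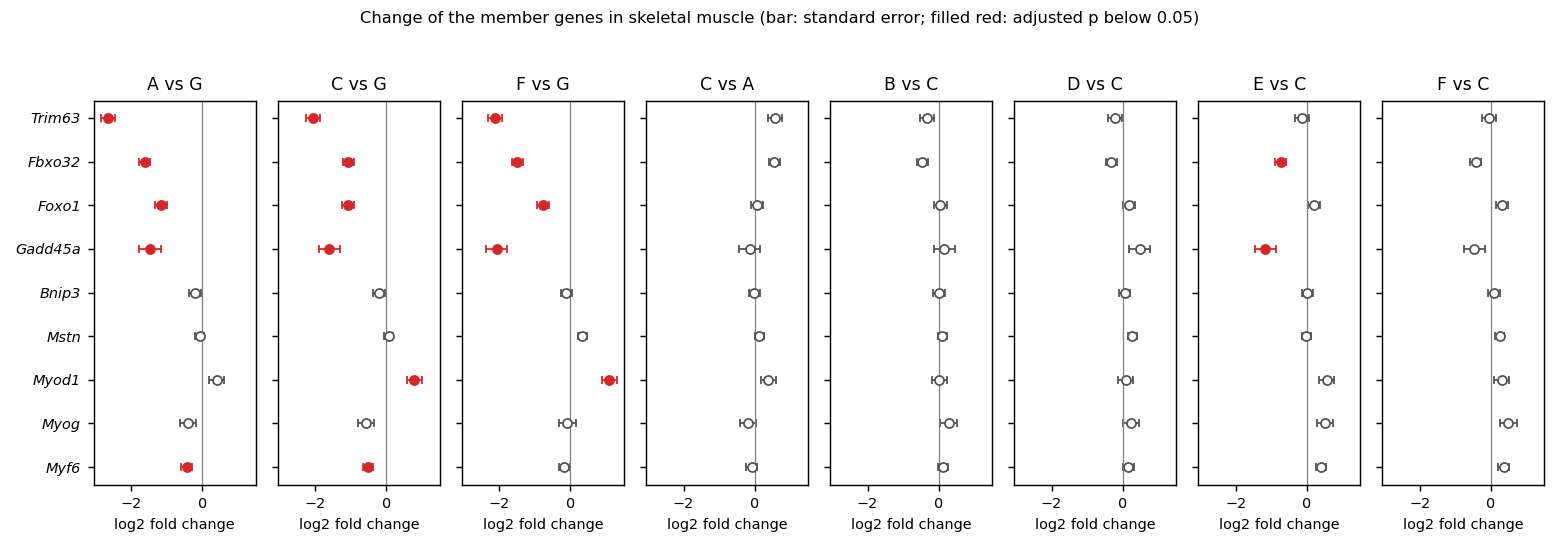
Log2 fold change of the 9 genes in skeletal muscle (horizontal axis) in 8 comparisons; points are limma estimates, bars their standard errors, and filled red points have an adjusted p below 0.05. Trim63, Fbxo32, Foxo1 and Gadd45a are filled and below 0 in the 3 comparisons with healthy muscle (A vs G, C vs G and F vs G), and only Fbxo32 and Gadd45a are filled in the treatment comparisons, in E vs C.

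The next question was whether diet and L-NAME, or a treatment, moved these genes within the KK/Ay mice. In C vs A no member passed the test, and limma called 0% of all genes after adjustment (3.57% had an unadjusted p below 0.05). Trim63 was 0.59 log2 units higher in C than in A (SE 0.20, unadjusted p = 0.0087, adjusted p = 1) and Fbxo32 0.56 higher (SE 0.15, unadjusted p = 0.0022, adjusted p = 1). For both genes every array of C lay above every array of A, and the groups did not overlap in 14.1% of all genes. Groups A and C shared no slide in muscle, so C vs A can be read within slides only through group B. On slide 5 B minus A was 0.72 for Trim63 and 0.14 for Fbxo32 (1 array against 3). On slide 7 B minus C was -0.56 and -0.42 (2 arrays against 2).

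Fbxo32 was lower than in group C on average in each of the 4 treated groups, and it passed the test in 1 of them. The SHENQI arrays read 11.39, 11.17 and 11.47, the yangyinyiqi arrays 11.35, 11.48 and 11.65, the huoxue arrays 11.07, 11.37 and 10.79, and the rosiglitazone arrays 11.15, 11.29 and 11.71. The arrays of B and C did not overlap (7.72% of all genes did not), nor did those of D and C (8.89%). Rosiglitazone array 3 was the only treated array that reached into the range of group C, whose lowest array read 11.66. The log2 fold changes were -0.47 in B vs C (SE 0.15, unadjusted p = 0.0079, adjusted p = 1), -0.32 in D vs C (unadjusted p = 0.056, adjusted p = 1), -0.73 in E vs C (adjusted p = 0.0037) and -0.42 in F vs C (unadjusted p = 0.014, adjusted p = 0.11). The probes gave -0.84 and -0.63 in E vs C. These 4 comparisons share the arrays of group C. Without rosiglitazone array 3, F vs C gave -0.59 (adjusted p = 0.044). Within slides the difference from group C was -0.42 for B on slide 7 (2 arrays against 2) and -0.47 for D on slide 8 (3 against 1).

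In E vs C, 2 of the 9 genes passed (19.7% of all genes did), and both were lower (9.7% of all genes). Beside Fbxo32 this was Gadd45a, which read 7.25, 7.09 and 7.31 with huoxue and was well above background on 1 of these 3 arrays. It fell from group C (-1.16, SE 0.30, adjusted p = 0.013 by limma), but the size of the fall is uncertain because most huoxue values lie at background, and it ranged from -0.56 to -2.76 over the other processing settings and fits. All 3 huoxue arrays were on slide 11, and the rosiglitazone array on that slide, array 1, was the lowest for Gadd45a in its group (7.39, against 8.44 and 7.91). With slide as a random block neither gene passed (Fbxo32 -0.66, adjusted p = 0.079, and Gadd45a -0.96, adjusted p = 0.16). In the fit of all 42 arrays Fbxo32 did not pass (-0.73, adjusted p = 0.12) and Myod1 did (0.56, adjusted p = 0.037). The myogenic factors lay above group C in E without overlap but missed the threshold, with 0.56 for Myod1 (adjusted p = 0.071), 0.51 for Myog (adjusted p = 0.13) and 0.41 for Myf6 (adjusted p = 0.060). Groups E and C did not overlap for 5 of the 9 genes and for 50.9% of all genes. For Foxo1 the probes disagreed in E vs C, with 0.00 and 0.40 on the log2 scale, and the gene did not pass (0.20, adjusted p = 0.45).

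With SHENQI and with yangyinyiqi no member passed, and limma called 0% of all genes in these comparisons (an unadjusted p below 0.05 was reached by 1.13% for B vs C and 1.5% for D vs C, and by 1 and 0 members). The log2 differences of the 9 genes from C lay between -0.47 and 0.28 for B. For D they lay between -0.32 and 0.47, the latter for Gadd45a (SE 0.30). In F vs C no member passed (6.7% of all genes did), 3 had an unadjusted p below 0.05 (22.4% of all genes), 3 did not overlap (37.9%), and the differences lay between -0.47 for Gadd45a and 0.50 for Myog (SE 0.23, adjusted p = 0.21). F vs E, which compares rosiglitazone with huoxue, also had no member past the test (0.00704% of all genes). There Gadd45a differed by 0.70 (SE 0.30, unadjusted p = 0.034, adjusted p = 0.57), the only member with an unadjusted p below 0.05 (8.02% of all genes) or without overlap (19.4%), and its difference on slide 11 was 0.18 (1 array of F against 3 of E). Trim63 differed by 0.08 (SE 0.20). Standard errors ran from 0.13 to 0.30, and changes well above their own standard error still missed the threshold. Examples are 0.70 for Gadd45a in F vs E (SE 0.30) and 0.50 for Myog in F vs C (SE 0.23). Changes of such size are therefore not excluded for genes that did not pass.

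The genes around the members were read as 7 lists. Of 18 FoxO factors and FoxO or autophagy target genes tested, 8 fell and 0 rose in A vs G (median -0.46, with 11.5% of all genes lower), 9 fell in C vs G (median -0.44, 11.2% of all genes) and 8 in F vs G (median -0.40, 8.53% of all genes). The others did not pass. The largest decreases in A vs G were those of Ddit4, an inhibitor of mTORC1 (-2.37, SE 0.33), Cdkn1a, the cyclin-dependent kinase inhibitor p21 (-2.33, SE 0.33), and the stress-response gene Sesn1 (-1.58, SE 0.27). Of 8 genes that respond to glucocorticoids, 7 were lower in A vs G (median -0.93), 5 in C vs G (median -0.70) and 4 in F vs G (median -0.42), against the same shares of all genes. Among them the metallothionein gene Mt2 fell by 3.19 in A vs G (SE 0.66), as did the transcription factor gene Cebpd (-2.71, SE 0.31) and Fkbp5, which encodes a co-chaperone of the glucocorticoid receptor (-1.20, SE 0.22). Cdkn1a on the healthy arrays ranged from 10.66 to 12.51 and on the KK/Ay arrays from 8.37 to 9.32, without overlap, and Cebpd ranged from 12.66 to 14.54 and from 10.98 to 12.07, also without overlap. Mt2 ranged from 13.42 to 17.31 on the healthy arrays and from 11.39 to 13.54 on the KK/Ay arrays, which overlapped. Without healthy array 3 the FoxO list had 11, 12 and 7 genes lower in the 3 comparisons and the glucocorticoid list 6, 5 and 2. Of all 14201 genes tested 2054, 2042 and 1123 were lower in that setting. With the 12 arrays of both tissues in 1 fit, 2, 2 and 1 FoxO list genes were called lower.

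The other lists, except IGF and Akt signalling, had genes called in both directions in A vs G. In that comparison 27.9% of all genes passed in either direction, and 11.5% were lower. Of 14 further ubiquitin ligase genes of muscle atrophy, 3 rose in A vs G and 2 fell (median 0.05). Fbxo21 (0.49), Trim55, the gene of MuRF2 (0.35), and Nedd4 (0.28) rose, and Fbxo31 (-0.84) and Fbxo30 (-0.37) fell. In C vs G 2 rose and 2 fell, and in F vs G 2 rose and 1 fell. In IGF and Akt signalling 4 of 10 genes fell and 0 rose in A vs G and in C vs G. In F vs G 3 fell and 0 rose. Of all genes 11.5%, 11.2% and 8.53% fell in A vs G, C vs G and F vs G, and 15.1% rose in both C vs G and F vs G. The IGF and Akt genes that fell in A vs G included Akt1 (-0.63), Akt2 (-0.43) and Pik3r1, a regulatory subunit of PI3 kinase (-0.58). In myostatin and activin signalling 4 of 15 rose and 1 fell in A vs G, where Fst, the gene of the myostatin-binding protein follistatin, rose by 0.78, Inhba by 0.67 and Gdf11 by 0.42 on the log2 scale while Inhbb fell by 0.47, and 4 rose and 1 fell in C vs G. Of 16 partners and inhibitors of the myogenic factors only Six4 (0.35) rose and only Cdh15 fell in A vs G, the latter, the gene of M-cadherin of satellite cells, with a log2 fold change of -2.09 (SE 0.35). Of 15 denervation and regeneration genes 3 rose and 1 fell in A vs G. The deacetylase gene Hdac4 rose by 0.88, Chrne, the adult subunit of the acetylcholine receptor, by 0.77 and Hdac9 by 0.36, and Ankrd1 fell by 1.51 on the log2 scale.

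Between the KK/Ay groups, none of the list genes passed in C vs A or with SHENQI or yangyinyiqi, comparisons in which limma called no gene at all. In E vs C 10 genes of the lists passed, where 19.7% of all genes tested did and 9.7% were lower. In myostatin and activin signalling 2 of 15 rose and 2 fell, and of 15 denervation genes 1 rose and 2 fell. Of 18 FoxO list genes and of 14 ligases 1 each rose, and of 10 IGF and Akt genes 1 fell. None of the 8 glucocorticoid or 16 myogenic partner genes passed. Smad7, an inhibitor of TGF beta family signalling, was not well above background on any huoxue array and was at least 2.85-fold lower there (adjusted p = 3.3e-06), Hdac4 (-1.66, SE 0.24) and Fst (-0.72, SE 0.11) fell, and Foxo4 (0.45) and Chrna1 (0.69) rose. In F vs C 3 passed (6.7% of all genes did), 1 of 15 in myostatin and activin signalling and 2 of 15 denervation genes. Among them were Smad7 (-1.06, SE 0.14, well above background on 2 of 3 rosiglitazone arrays) and Hdac4 (-0.92, SE 0.24), which fell. On slide 11, which held all E arrays, only 1 array of F was hybridized, and the part of the slide in these differences was not tested.

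**Figure D3:**
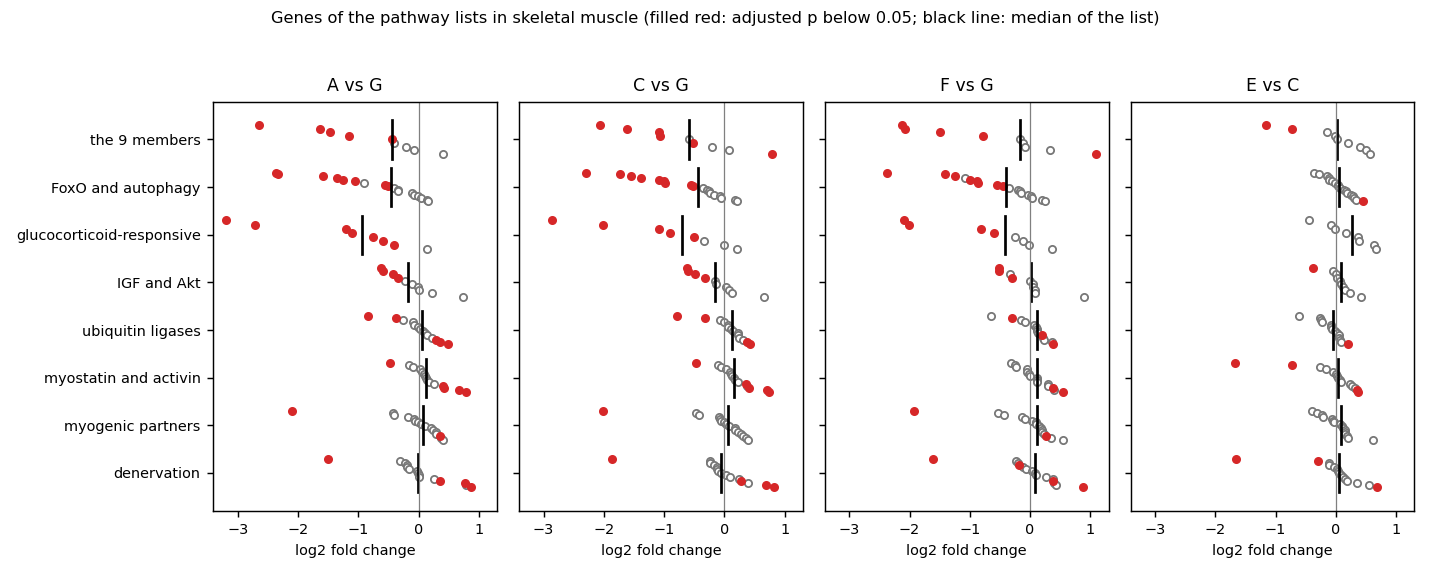
Log2 fold change in skeletal muscle of each tested gene of the 9 members and of 7 pathway lists (rows) in A vs G, C vs G, F vs G and E vs C; filled red points have an adjusted p below 0.05 and black lines are list medians. In the comparisons with healthy muscle the FoxO and glucocorticoid lists have medians from -0.93 to -0.40, against 0.02 to 0.03 over all genes.

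Markers of other cell types and of fibre type also differed between healthy and KK/Ay muscle. The mean of 7 slow fibre markers lay between 13.40 and 13.59 on the healthy arrays and between 13.82 and 14.47 on the KK/Ay arrays, and 6 of the 7 were higher in each of A vs G and F vs G and 2 in C vs G. Macrophage markers lay between 8.02 and 8.79 on the healthy arrays and between 7.64 and 7.96 on the KK/Ay arrays, with 3 of 5 lower in A vs G and in C vs G and 2 in F vs G. Red cell markers had 3 of 4 lower in A vs G and adipocyte markers 2 of 7 lower, while of the endothelial, fibroblast, Schwann cell and cardiac muscle markers none passed in A vs G. Of 7 smooth muscle markers 2 were higher in A vs G, and of 12 fibre markers 3, while in E vs C 5 of the 12 fibre markers were lower. Of all genes tested 27.9% passed in A vs G, 11.5% lower. In C vs G 26.3% passed, 11.2% lower, and in F vs G 23.6%, 8.53% lower. In E vs C 9.7% were lower. Without healthy array 3, whose fibroblast and endothelial markers were the lowest, A vs G had 4 of 5 fibroblast, 2 of 5 endothelial, 1 of 5 Schwann cell and 4 of 4 red cell markers lower, 1 cardiac marker higher and 1 lower, and 2 smooth muscle markers higher and 3 lower. Without that array 2054 of all 14201 genes tested were lower in A vs G and 2611 higher. In bulk tissue fewer cells of a type and less RNA per cell cannot be told apart, and the part of these marker shifts in the values of the 9 genes was not tested.

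For each member the genes with the most similar pattern were sought among 14184 genes over the 21 muscle arrays, as a description. Trim63 was closest to Usp53 (r = 0.95), Igfbp3 (0.95) and Tgtp1 (0.94), and Fbxo32 to Gmnn (0.92), Tmem140 (0.91) and Pitrm1 (0.91). With the group means taken out these fell to 0.46, 0.58 and 0.29 for Trim63 and to 0.35, 0.46 and 0.43 for Fbxo32. Foxo1 was closest to Xdh (0.96), Syn2 (0.96) and Ms4a6b (0.95), Gadd45a to Man1a2 (0.93), Rit1 (0.93) and Aggf1 (0.92) and Myod1 to Lrrc14 (0.94), P2ry2 (0.91) and Bmp8a (0.90). Bnip3 followed Ifitm2 (0.90), and Mstn had no gene above 0.79 (Zfp825). Myog and Myf6 were each the closest gene to the other (r = 0.88), and this held up when the group means were taken out (r = 0.83) and over the 18 KK/Ay arrays alone (r = 0.86). Myod1 correlated with Myog at r = 0.12 and with Myf6 at 0.03 over the 21 arrays (0.32 and 0.26 with the group means taken out), and at 0.76 and 0.74 over the 18 KK/Ay arrays. The points share slides and normalization.

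In aorta the muscle genes were faint. Healthy muscle exceeded healthy aorta for 8 of the 9 genes (16.6% of all genes were higher in muscle). Mstn, Myod1 and Myog, which are in this count, passed the filter only in muscle, so the count is no test for them. The difference was 6.97 log2 units for Trim63, 5.51 for Myf6, 2.10 for Gadd45a and 1.25 for Bnip3, and Fbxo32 was 31.9-fold higher. Mstn, Myod1 and Myog were not well above background on any healthy aorta array, which puts them at least 13.5-fold, 1.61-fold and 2.82-fold higher in muscle, each bound taken from the higher of the probe's own aorta signal and the lowest signal well above background. Foxo1 read 10.91, 10.94 and 10.94 in healthy aorta and 11.46, 10.71 and 11.69 in healthy muscle, a difference of 0.35 (adjusted p = 0.16). Without healthy muscle array 2 it was 0.64 (adjusted p = 0.0075).

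No member passed the test in aorta in any comparison, where limma called 3.43% of genes for A vs G, 6.53% for C vs G, 4.06% for F vs G and 0% in the others. Mstn, Myod1 and Myog could not be tested there, as no group had them well above background on all 3 arrays. Among the 6 genes tested only Gadd45a in A vs G had an unadjusted p below 0.05, as 18.4% of all genes did (-0.61, unadjusted p = 0.044, adjusted p = 0.25). Foxo1 in aorta stayed within 10.76 to 11.60 on all 21 arrays, and its difference was 0.01 in A vs G (SE 0.19, adjusted p = 0.99) and 0.01 in C vs G (adjusted p = 0.99). The test of the difference between tissues was passed by Trim63, Fbxo32 and Foxo1 in A vs G (1.69% of all genes passed), by Foxo1 in C vs G (4.35%) and by Fbxo32, Foxo1, Gadd45a and Myod1 in F vs G (5.89%). Myod1 was well above background on no healthy and 1 of 3 rosiglitazone aorta arrays, so its value sets the muscle change against the array floor and does not show a different response of the aorta. Trim63, Fbxo32 and Gadd45a were dim in healthy aorta (means 8.17, 7.88 and 7.89, against 6.77 for Myod1, which was at background). Falls as large as theirs in muscle in A vs G and F vs G could not show there in full. The tests of Trim63 and Gadd45a therefore do not decide whether the tissues respond differently. Fbxo32 was well above background on all 21 aorta arrays. Its aorta means were 8.33 in A, 8.09 in C and 8.32 in F, not below the 7.88 of G. Its aorta values also moved with skeletal muscle fibre markers (r = 0.68), and the part of these in its difference was not tested. No member passed the test of the difference in E vs C (0.185%), F vs C (0.0309%), F vs E (0.00618%) or the remaining comparisons (0%). Without healthy aorta array 1 and healthy muscle array 3 these counts of 3, 1 and 4 became 1, 0 and 3, a setting chosen after seeing the data.

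The aorta values of several members moved with skeletal muscle fibre markers. The mean of the 12 fibre markers ranged from 8.08 to 15.13 on the aorta arrays, and 5 arrays were above 12: diabetic array 2 (15.13), rosiglitazone array 1 (13.65), healthy array 3 (12.58), huoxue array 1 (12.16) and diabetic array 3 (12.03). Myf6 read 9.29 on the first of these and 9.64, 7.99, 8.33 and 7.27 on the next 4, against 6.81 to 7.54 on the other 16. Mstn was well above background on 5 aorta arrays, with its highest values on diabetic array 2 (8.25) and rosiglitazone array 1 (7.82). Trim63 was highest on healthy array 3 (9.51), diabetic array 2 (9.32) and rosiglitazone array 1 (8.34). On huoxue array 1 (7.37) and diabetic array 3 (7.65) it lay within the range of the other 16 arrays (6.79 to 7.88). These 5 arrays came from 4 groups. The part of muscle adjoining the aorta in these values was not tested.

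**Figure D4:**
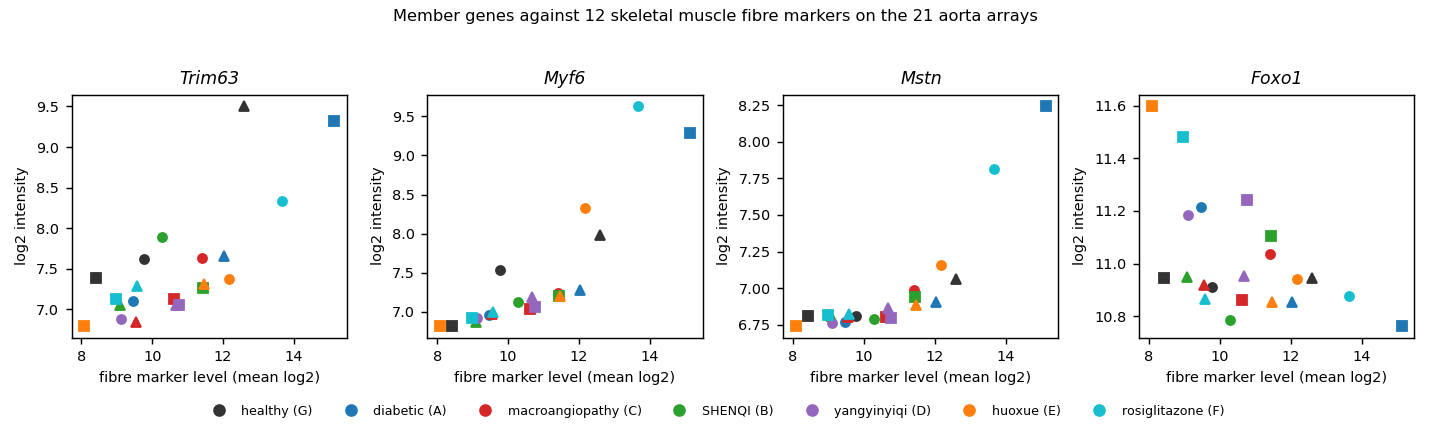
Log2 intensity of Trim63, Myf6, Mstn and Foxo1 (vertical axes) against the mean log2 level of 12 skeletal muscle fibre markers (horizontal axes) on the 21 aorta arrays; colours give groups and symbols the array number (1 circle, 2 square, 3 triangle). The arrays with the highest Myf6 and Mstn values lie at 13.65 and 15.13 on the marker axis, and Foxo1 stays between 10.76 and 11.60.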

How the data were processed

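Single-colour Agilent 4x44k mouse arrays were scanned and read by the authors with Feature Extraction 10.7.3.1, per the file headers. The deposited files hold the median intensity of 45018 spots and of their local background on each of the 42 arrays; 1639 spots are controls. The authors' deposited log2 values served as an alternative. Here intensities were corrected with normexp (limma 3.58.1, R 4.3.3, offset 0), quantile normalized across all 42 arrays together and log2 transformed. Irregular spots were masked, and spots of a probe and probes of a symbol were averaged. A gene was tested in a tissue where the 3 arrays of some group all had one of its probes well above background, which left 14201 genes in muscle and 15844 in aorta. Arrays were grouped by their labels and fitted per tissue with lmFit and eBayes on 7 group means (21 arrays), with Benjamini-Hochberg adjustment over all genes tested and a threshold of 0.05. Differences between tissues came from a fit of all 42 arrays (14 means). On simulated data 88.5% of 200 genes changed by 1 log2 unit were recovered in muscle (A vs G) and 67% in aorta. Lists were described by counts and medians. Genes named from a list were up to 3 per direction with the largest change past the threshold in muscle, of which the text names some; likeness was Pearson's r. Alternatives were another offset, the processed signal, normalization within tissue, the authors' table, filters, the brightest probe, other fits, slide and replicate blocks, and each array left out. The members and lists were chosen with earlier results of these data known. The number of arrays limits the precision. Promoters came from RefSeq tables (GRCm38.p6) and probe positions are mm9. Tables and figures used Python 3.11.15, pandas 2.3.3, numpy 2.4.6 and matplotlib 3.10.9.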

Additional observations from a re-analysis of the deposited data

Results flagged for a closer look

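The change from healthy mice differed between skeletal muscle and aorta for 8 pairs of gene and comparison, by limma's test of that difference with all 42 arrays. In A vs G the log2 fold change in muscle minus that in aorta was -2.50 for Trim63 (SE 0.60, adjusted p = 0.025), -2.07 for Fbxo32 (SE 0.38, adjusted p = 0.0030) and -1.17 for Foxo1 (SE 0.27, adjusted p = 0.016). In C vs G it was -1.09 for Foxo1 (SE 0.27, adjusted p = 0.016). In F vs G it was -1.93 for Fbxo32 (SE 0.38), -0.92 for Foxo1 (SE 0.27), -1.88 for Gadd45a (SE 0.42) and 0.98 for Myod1 (SE 0.23), with adjusted p of 0.0029, 0.038, 0.0091 and 0.011. Myod1 was at background in aorta (0 of 3 healthy and 1 of 3 rosiglitazone arrays well above it), so its value rests on muscle alone. Trim63, Fbxo32 and Gadd45a were dim in healthy aorta (means 8.17, 7.88 and 7.89). Falls of the size seen in muscle in A vs G and F vs G could not show there in full. The values of Trim63 and Gadd45a therefore do not decide whether the tissues respond differently. Fbxo32 in aorta had means of 8.33 in A and 8.32 in F, not below that of G. In aorta Trim63 and Fbxo32 also followed the skeletal muscle fibre markers (r = 0.76 and 0.68 over 21 arrays). The Trim63 value was not past the threshold when healthy aorta array 2, diabetic aorta array 2, healthy muscle array 1 or diabetic muscle array 3 was left out (-1.86 to -2.47, adjusted p from 0.051 to 0.076). The Foxo1 value in A vs G missed it without diabetic aorta array 1 (-1.03, adjusted p = 0.066), and that in F vs G missed it without any of 6 arrays (-0.71 to -0.92, adjusted p from 0.066 to 0.13). Other processing also ended calls. Trim63 in A vs G missed the threshold with the processed signal (adjusted p = 0.56), the authors' table (0.57), quantile normalization within tissue (0.055) and slide as a random block (0.081). Foxo1 missed it with the brightest probe in A vs G, C vs G and F vs G (adjusted p = 0.067, 0.057 and 0.075), and in F vs G also with the slide block (0.054), the processed signal (0.093) and the authors' table (0.064). With the processed signal and the authors' table Gadd45a (adjusted p = 0.093 and 0.15) and Myod1 (0.26 and 0.24) missed it in F vs G.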

How the results depend on the processing

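Of 4470 recomputed values of single members 4382 kept their direction and side of the threshold, 67 lost a call, 21 gained one and 0 reversed past it. Values without a call in the main fit, among them all those of C vs A, B vs C and D vs C, could not lose one. The total therefore does not measure how stable the calls are. In muscle the counts of members called in A vs G, C vs G and F vs G (5, 6 and 5) became 2, 2 and 2 with only the 6 arrays compared and 0, 1 and 0 with the 12 arrays of both tissues and a tissue term. In E vs C the count of 2 became 1 with a stricter filter, which tests fewer genes, 5 with only the 6 arrays compared, 0 with the tissue term and 0 with slide as a random block. The tissue-term fit has a single effect for both tissues, so its 1 call in C vs G, Trim63, is not a call in aorta, where the count was 0. Leaving out single arrays gave 4 to 6 called members for A vs G, 5 to 7 for C vs G, 5 to 6 for F vs G and 0 to 1 for F vs C, the 1 without rosiglitazone array 3. Differences between tissues ranged from 1 to 3 members in A vs G, 0 to 3 in C vs G and 3 to 4 in F vs G when arrays were left out, including the pair of doubtful arrays, a setting chosen after seeing the data. In C vs G the count of 1 became 2 with an offset of 50 and 2 with the stricter filter, and in F vs G 4 became 1 with the processed signal, 1 with the authors' table and 2 with the stricter filter. The stricter filter left 2 of the 8 genes higher in muscle than in aorta, as the others were not tested. The processed signal moved the median of all genes to 0.17 for A vs G, 0.13 for C vs G and 0.11 for E vs C. With the tissue term, Fbxo30 turned from a decrease to 0.33 (A vs G), 0.42 (C vs G) and 0.30 (F vs G), and Myh8 to 0.12 in F vs C and 0.31 in F vs G; Myh8 was also 0.034 (E vs C) and 0.14 (F vs G) with the processed signal, and 0.26 and 0.058 with the authors' table. The causes were not tested. With the replicate number as a block the counts in muscle stayed at 5, 6, 2 and 5 in A vs G, C vs G, E vs C and F vs G, and same-numbered arrays did not deviate together (median r = -0.04 in muscle), so the numbers were not taken as pairs. Dim genes in aorta limit what could be read there.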
